A study of Mus musculus with 6 samples.

Results

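Wing cells are the flattened suprabasal cells of the stratified corneal epithelium, between the basal layer on the basement membrane and the superficial cells that face the tear film. They were picked from single-cell RNA-seq of mouse cornea by counts of unique molecular identifiers (UMIs) of a few genes. A barcode needed at least 500 UMIs, at least 250 detected genes and at most 20% mitochondrial UMIs. Its summed UMIs of Krt12, Krt5, Perp and Dapl1 had to be at least 5 and at least 3 times its keratocyte UMIs (Dcn, Lum, Kera and Col1a2). Gsta2 and Muc15 together had to reach 2 UMIs, with at most 1 Krt14 UMI, at most 4 Krt6a UMIs, at most 1 UMI of Asprv1 and Prss22 together, and at most 1 of the 5 cycle genes Mki67, Top2a, Cenpf, Ube2c and Birc5 detected. Of 63021 barcodes past the depth and mitochondrial limits in the 6 libraries, 15317 were epithelial by this rule and 1803 were wing cells.

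The study compared naive corneas of mice lacking the miR-183/96/182 microRNA cluster (KO) with those of wild-type littermates (WT), all labelled female and on a mixed 129S2 and C57BL/6 background. Corneas, cut out anterior to the limbus and dissociated with collagenase A and DNase I, gave 1 library per genotype at 2 months of age and 1 per genotype at 6 months. Another pair of libraries, WT and KO at 6 months, held cornea-resident immune cells (CRIC) enriched with magnetic beads against CD45, and their wing cells are those that remained after that enrichment. Each of the 6 groups is thus 1 library, and the labels do not say how many animals it pools. The edgeR p-values over these libraries rest largely on a spread between them that was pooled over genes and may be technical. Disagreement between libraries in a single gene enters them little.

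The corneal epithelium renews itself from the limbus and the basal layer: a daughter cell leaves the basement membrane, withdraws from division, passes through the wing layers and is shed from the surface. On this path hemidesmosomes, which bind integrins and type XVII collagen to the basement membrane, give way to desmosomes and claudin-containing junctions between neighbouring cells. Wing cells interlock through many desmosomes, carry the cornea-specific keratin pair Krt12 and Krt5, and belong to an epithelium rich in detoxifying and light-absorbing enzymes. The deleted microRNAs are best known from photoreceptors and other sensory cells, and are also made in epithelia and sensory nerves of the cornea.

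The 4 cornea libraries held 472 (2-month WT), 880 (2-month KO), 175 (6-month WT) and 140 (6-month KO) wing cells, and the CRIC libraries held 69 (WT) and 67 (KO). Totals were 9827933 to 117613142 UMIs per library, and the median wing cell held 3224 to 6623 UMIs. No wing barcode was shared between any 2 libraries. The 2-month KO library, labelled female, carried 302 UMIs of 4 Y-linked genes in its wing cells, against 0 in each of the other 5 libraries: 177 of its wing cells held Y-linked UMIs without Xist, 455 Xist without Y-linked UMIs, 11 both and 237 neither. It thus goes against its label, and below the named calls that were lost without it are given with their values. The 3 genes of the deleted cluster are not analysed here, so the genotype labels have no check in these counts. Keratocyte UMIs were present in 48.1%, 63.5%, 81.7% and 40.7% of the wing cells of the 4 cornea libraries in the order above and in 4.35% and 1.49% of the CRIC wing cells.

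The label was checked on the genes given with it. Gsta2, a glutathione transferase, and Muc15, a membrane mucin, were part of the rule and are described only: Gsta2 was detected in 93.2%, 93.8%, 96.6% and 91.4% of cornea wing cells (2-month WT, 2-month KO, 6-month WT, 6-month KO) and Muc15 in 73.7%, 74.9%, 54.9% and 66.4%. Dsg1a, which encodes a desmosomal cadherin, was detected in 75.2%, 75.8%, 70.3% and 53.6%. Lypd3, a membrane-anchored protein of stratified epithelia, was detected in 71.6%, 78.6%, 70.9% and 65.0%. After every cell was thinned to 1500 UMIs, Lypd3 remained in 40.0%, 42.5%, 28.0% and 40.6% of wing cells, against 21.5%, 13.9%, 15.8% and 24.7% of basal cells. Thinned Dsg1a was in 45.9%, 40.0%, 32.9% and 35.3% of wing cells, against 12.3%, 13.1%, 13.9% and 6.74% of basal cells. Detection of Gsta2 and Muc15 followed from the rule. Outside the rule, Dsg1a and Lypd3 were each detected in a larger share of wing than of basal cells in every cornea library. This check sets wing cells beside basal cells only. Past the Krt6a limit of the rule Lypd3 was not lower. Barcodes with 5 Krt6a UMIs that met every other criterion averaged 3.56, 3.33, 4.57 and 2.25 Lypd3 UMIs. Wing cells with 4 averaged 2.55, 3.14, 2.36 and 1.92.

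Conjunctival markers were rare, since Krt13 or Krt4 was detected in 4.24%, 6.14%, 6.86% and 7.86% of the cornea wing cells. Krt19, Krt8, Krt4 and Krt16 were each under 5 CPM (counts scaled to 1000000 per sum) in the summed wing cells of every cornea library. Krt12, which was part of the rule and is described only, stood at 29420, 30101, 27685 and 26057 CPM. Outside the rule, Pax6, the master transcription factor of eye development, stood at 554, 471, 471 and 452 CPM. Aldh3a1, the soluble crystallin of the mouse cornea, stood at 10563, 11275, 12312 and 11339 CPM in wing cells, below the 15168 to 18133 CPM of basal cells.

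The rule cuts a continuum, and many barcodes lie at its edges. In the cornea libraries 134, 198, 58 and 48 wing cells had exactly 2 UMIs of Gsta2 and Muc15, while 205, 392, 105 and 122 barcodes that met every other criterion had 1. At the upper edge, 29, 65, 11 and 12 wing cells had 4 Krt6a UMIs and 18, 43, 7 and 12 barcodes just outside had 5. The mean Lypd3 count was 2.55, 3.14, 2.36 and 1.92 UMIs per cell just inside that edge and 3.56, 3.33, 4.57 and 2.25 just outside. At the lower edge few cells were near: 19, 34, 14 and 9 wing cells had 1 Krt14 UMI and 9, 11, 13 and 8 other barcodes had 2. In the same libraries 1020, 1733, 857 and 690 epithelial barcodes fell in none of the 4 states described here and held at most 1 cycle gene.

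Wing cells were set beside 3 other epithelial states of the same libraries, chosen by the same kind of rule. Basal cells had at least 5 Krt14 UMIs and at most 1 of Gsta2 and Muc15, Krt6a-high cells at least 5 Krt6a UMIs, and superficial cells at least 2 of Asprv1 and Prss22. The 4 cornea libraries held 66, 137, 209 and 92 basal, 267, 386, 58 and 62 Krt6a-high, and 1616, 1563, 1685 and 1009 superficial cells. Counts were summed over the cells of a state within each library and given as CPM, and because the states were chosen on the counts themselves the comparison is a description with no test. Where 4 values are given, they run from 2-month WT through 2-month KO and 6-month WT to 6-month KO.

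Wing cells were intermediate between basal and Krt6a-high cells for many genes. Of 7134 genes measured in these 3 states, 417 were ordered basal below wing below Krt6a-high in all 4 cornea libraries and 403 in the reverse order, while wing cells were above both in 180 and below both in 36. At 2-fold in all 4 libraries, 80 of 7686 measured genes were higher in wing than in basal cells (1.04%) and 115 were lower (1.50%). Required in only the other 3 libraries, they were 137 and 155 without 6-month WT and 129 and 206 without 6-month KO, and with basal cells of at least 10 Krt14 UMIs 22 genes were higher and 92 lower. Against Krt6a-high cells 47 of 7301 were higher (0.644%) and 109 lower (1.49%). Superficial cells stood far apart, with 5557 of 9258 genes at least 2-fold higher in wing cells (60.0%) and 666 lower (7.19%). Superficial cells held a median of 9253 to 19221 UMIs per library and 0.259% to 0.344% mitochondrial UMIs, against 2.04% to 2.27% in wing cells.

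**Figure D1:**
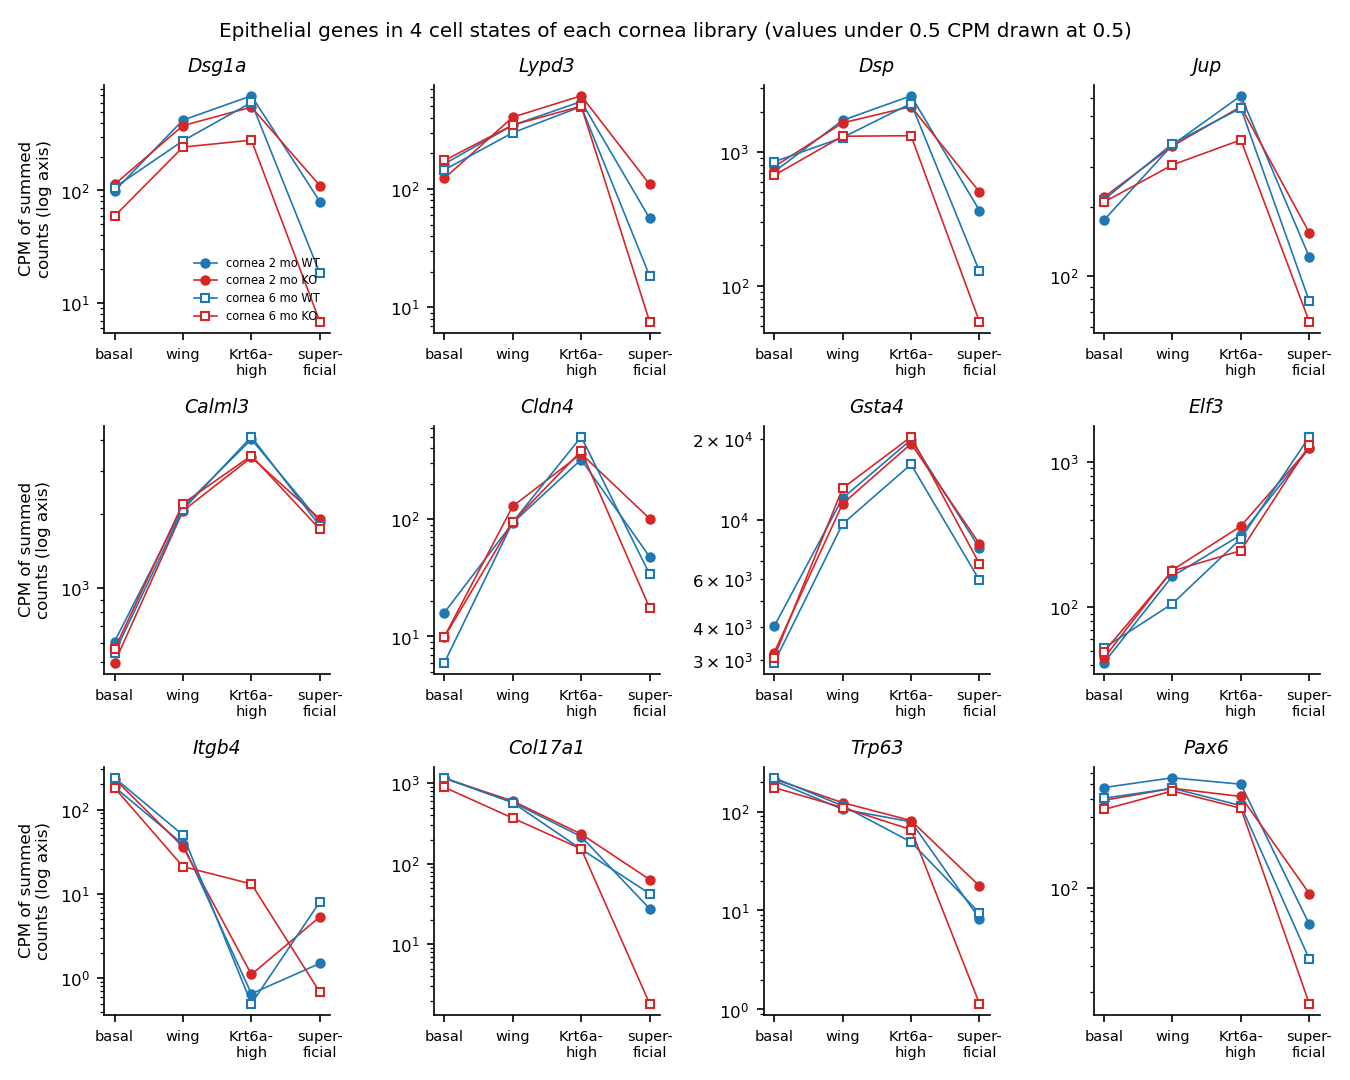
Summed counts of 12 epithelial genes in CPM (log axis) across basal, wing, Krt6a-high and superficial cells, with 1 line per cornea library (blue WT, red KO, filled 2 months, open 6 months). Dsg1a, Lypd3, Dsp, Jup, Calml3, Cldn4, Gsta4 and Elf3 step up from basal to wing in all 4 libraries, and Itgb4, Col17a1 and Trp63 step down.

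Desmosome genes were higher in wing than in basal cells. Of 10 measured members of the desmosome list, 7 were higher in all 4 libraries and 0 lower, with a median log2 ratio of 0.82. Over all 7686 measured genes 1294 were higher (16.8%) and 1052 lower (13.7%) in all 4 libraries, with a median of 0.04. Dsg1a read 421, 376, 276 and 243 CPM in wing cells and 99.1, 113, 106 and 59.2 CPM in basal cells. Dsp, encoding desmoplakin, which ties desmosomes to keratin, read 1719, 1646, 1280 and 1308 CPM in wing cells and 709, 775, 843 and 668 CPM in basal cells. Every wing value of both genes lay above every basal value. Dsc2, a desmocollin, ran from 92.1 to 116 CPM in basal cells through 236 to 366 CPM in wing cells to 385 to 648 CPM in Krt6a-high cells. Jup (plakoglobin) was at 306 to 378 CPM in wing cells, against 176 to 221 CPM in basal and 393 to 612 CPM in Krt6a-high cells. Pkp3, a plakophilin, overlapped between wing cells (139 to 175 CPM) and basal cells (128 to 172 CPM). The copies Dsg1a, Dsg1b and Dsg1c are near-identical, and the split of counts between them is uncertain.

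The anchors to the basement membrane moved the other way. Of 12 measured hemidesmosome and basement membrane genes, 9 were lower in wing than in basal cells in all 4 libraries, 4 of them at least 2-fold, and 0 were higher, with a median log2 ratio of -0.99. As above, 13.7% of all measured genes were lower and 16.8% higher in all 4 libraries. Itgb4, the integrin beta subunit of hemidesmosomes, read 38.8, 36.1, 49.8 and 21.1 CPM in wing cells against 185, 231, 238 and 181 CPM in basal cells. In Krt6a-high cells it read 0.657, 1.11, 0 and 13.1 CPM, so that wing cells still held a residue of it. Col17a1, the transmembrane collagen of hemidesmosomes, read 581, 602, 574 and 369 CPM in wing cells, between 892 to 1169 CPM in basal and 152 to 234 CPM in Krt6a-high cells. Itga3, which pairs with Itgb1 in a laminin receptor, was at 46.1 to 111 CPM in basal cells and at 8.44 to 30.6 CPM in wing cells. Trp63, the transcription factor of epithelial progenitors, was at 105 to 123 CPM in wing cells and 174 to 219 CPM in basal cells.

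Of 16 measured tight, gap and adherens junction genes, 8 were higher in wing than in basal cells in all 4 libraries and 1, the gap junction gene Gja1, was lower. The shares of all measured genes were 16.8% higher and 13.7% lower. Cldn4, a claudin of tight barriers, read 92.8, 129, 94.3 and 94.95 CPM in wing cells, against 5.98 to 16.0 CPM in basal and 322 to 503 CPM in Krt6a-high cells. Cldn7 was at 641 to 878 CPM in wing cells, 243 to 316 CPM in basal and 1085 to 1368 CPM in Krt6a-high cells. Gja1, encoding connexin 43, read 160, 141, 163 and 114 CPM in wing cells, against 227 to 343 CPM in basal and 42.0 to 69.9 CPM in Krt6a-high cells. Against Krt6a-high cells 13 of 18 measured junction genes were lower in wing cells in all 4 libraries and 1 was higher, where 1102 of all 7301 genes were lower (15.1%) and 1776 higher (24.3%).

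Of 11 measured cornified envelope genes, 5 (S100a11, Cstb, Evpl, Calml3 and Ppl) were higher and 2 (S100a10 and Anxa1) lower in wing than in basal cells in all 4 libraries, with a median log2 ratio of 0.36. All measured genes gave 16.8% higher and 13.7% lower. Evpl and Ppl, the envoplakin and periplakin scaffold of the cell envelope, were at 138 to 261 and 225 to 343 CPM in wing cells, against 61.1 to 101 and 85.5 to 129 CPM in basal cells and 380 to 692 and 441 to 758 CPM in Krt6a-high cells. Calml3, a calmodulin-like protein of differentiating epithelium, read 2133, 2063, 2087 and 2209 CPM in wing cells, between 499 to 607 CPM in basal and 3405 to 4125 CPM in Krt6a-high cells. The epidermal genes Lor, Krtdap and Sprr1b had 0 UMIs in the wing cells of all 4 cornea libraries. Muc4, the large membrane mucin of the ocular surface, was at 6.99 to 19.0 CPM in wing cells and at 105 to 382 CPM in Krt6a-high cells. Psca, a surface protein of superficial cells (70397 to 87913 CPM there), was at 132 to 235 CPM in wing cells, which overlapped the 109 to 208 CPM of basal cells. It was detected in 41.7%, 51.4%, 73.7% and 36.4% of wing cells. Barcodes that were not epithelial held it about as often, in 40.3%, 52.8%, 74.2% and 30.1%. The part of free RNA in its wing and basal counts was not tested.

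Detoxifying enzymes were among the most abundant products. Gsta4, a glutathione transferase that clears lipid peroxidation aldehydes, read 12054, 11486, 9659 and 13129 CPM in wing cells, above the 2929 to 4000 CPM of basal cells and below the 16135 to 20444 CPM of Krt6a-high cells in each library. Gsto1, of the omega class, read 1305, 1314, 1079 and 1424 CPM in wing cells and 3830 to 4251 CPM in Krt6a-high cells. Txn1, thioredoxin, was higher in wing cells (3968, 3630, 4515 and 3644 CPM) than in basal (2784 to 3511 CPM) and Krt6a-high cells (1965 to 3392 CPM). Over the 26 measured genes of the glutathione and NRF2 list, 8 were higher and 5 lower in wing than in basal cells in all 4 libraries, against 16.8% and 13.7% of all genes. The median log2 ratio was 0.03, close to the 0.04 of all genes. Members of the list thus stood on both sides.

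Among 21 measured epithelial transcription factors, 8 were higher in wing than in basal cells in all 4 libraries and 4 were lower. For all measured genes these shares were 16.8% and 13.7%. Elf3, an Ets-family factor of epithelial differentiation, read 163, 180, 106 and 177 CPM in wing cells against 41.5, 44.8, 52.5 and 49.4 CPM in basal cells. Ovol1, which represses progenitor genes, was at 12.7 to 24.1 CPM in wing cells and 0 to 3.29 CPM in basal cells. Grhl1, a grainyhead factor that controls desmosomal cadherins, was at 29.7 to 52.2 CPM in wing and 3.20 to 13.7 CPM in basal cells. Klf5 overlapped, at 82.3 to 207 CPM in wing cells against 79.0 to 116 CPM in basal cells. In the Notch list the ligand Jag2 read 3.57, 8.44, 11.4 and 6.33 CPM in wing cells and 72.4 to 92.7 CPM in basal cells, and the ligand Dll1 was at 7.57 to 16.6 against 23.0 to 43.5 CPM. The receptor Notch3 stood on the other side, at 63.3 to 95.5 CPM in wing and 26.3 to 50.5 CPM in basal cells.

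Outside these lists, Plac8, Rbp2 and Pdzk1ip1 were among the genes highest in wing over basal cells. Pdzk1ip1 was higher still in Krt6a-high cells, at 639 to 804 CPM against 118 to 251 CPM in wing cells. Plac8, a small cysteine-rich protein, read 209, 206, 129 and 190 CPM in wing cells against 25.6, 24.9, 23.2 and 19.7 CPM in basal cells. Rbp2, a cellular retinol-binding protein, read 364, 366, 305 and 477 CPM against 51.1, 42.3, 41.2 and 85.5 CPM. Agpat3, Cst6, Fermt3, Mal, Cyp4a12b and Pygl followed, with median log2 ratios of 2.53, 2.38, 2.27, 2.23, 2.19 and 2.08. On the other side stood Spon2, an extracellular matrix protein, at 21.9, 28.8, 49.8 and 27.4 CPM in wing cells and 275, 372, 344 and 273 CPM in basal cells. Tnfrsf12a (the Fn14 receptor), Ftl1 (ferritin light chain), Cpe, Cyr61, Wfdc2, Sparc, Antxr1, Fscn1, Npy and Igfbp5 were also lower, with median log2 ratios from -2.64 to -1.77. Reads of Ftl1 can be shared with its many near-identical copies.

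Against Krt6a-high cells, Krt13, Muc4, Krt6b and Hopx were among the genes lowest in wing cells, with median log2 ratios of -4.54, -3.82, -3.38 and -3.33. Krt13 was at 12.9, 14.3, 13.1 and 76.0 CPM in wing cells and 389, 256, 514 and 402 CPM in Krt6a-high cells, and Krt6b was at 69.9 to 110 against 782 to 1252 CPM. Hopx, a homeodomain-only protein of differentiating epithelium, read 37.9, 43.5, 14.8 and 29.5 CPM in wing cells against 131 to 443 CPM. Wing cells were higher in Ftl1 (254 to 314 against 18.4 to 52.5 CPM), Crip1 (319 to 572 against 52.6 to 105 CPM), Mt2, a metallothionein (736 to 1630 against 227 to 597 CPM), and Ccnd1, which encodes cyclin D1 (452 to 593 against 114 to 162 CPM). Kit, the stem cell factor receptor, was above both neighbours in each cornea library, at 169, 150, 154 and 135 CPM in wing cells. In CRIC WT it was above both too, and in CRIC KO it read 94.0 CPM in wing and 107 CPM in Krt6a-high cells.

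Variation among wing cells was described inside the gate by the cells' own Krt6a UMIs, which the rule allows up to 4. In the cornea libraries 60.6%, 59.3%, 63.4% and 55.0% of wing cells had no Krt6a UMI. Cells with 3 or 4 numbered 53, 128, 15 and 21, and their median depth (4576, 5186, 6009 and 2900 UMIs) was close to that of cells with 0 (4588, 5003, 6774 and 3358 UMIs). Several genes that separate basal from Krt6a-high cells were graded in the same direction inside the gate in the cornea libraries. Lypd3 ran from 303 CPM in wing cells with 0 through 370 with 1 or 2 to 526 CPM with 3 or 4 Krt6a UMIs in the 2-month WT library. In the 2-month KO library the 3 values were 329, 476 and 595 CPM, in the 6-month WT library 255, 370 and 426 CPM, and in the 6-month KO library 273, 366 and 602 CPM. The order was the same in all 4 libraries, while CRIC KO read 447, 310 and 484 CPM.

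Plac8 and Cldn4 were graded more steeply. Plac8 ran from 137 to 406, 130 to 395, 76.4 to 499 and 45.5 to 617 CPM between wing cells with 0 and those with 3 or 4 Krt6a UMIs. Cldn4 ran from 48.2 to 213, 88.9 to 239, 60.3 to 312 and 37.9 to 250 CPM. Basal genes were graded in the opposite direction. Itgb4 ran from 57.7 to 3.87, 53.4 to 1.46, 61.7 to 0 and 30.3 to 0 CPM, and Col17a1 from 660 to 337, 706 to 405, 665 to 166 and 444 to 191 CPM. Dsg1a was highest in the group with 3 or 4 in 3 of the 4 libraries, and in 2-month WT it read 360, 518 and 515 CPM over the 3 groups. Other genes did not keep the order. Psca, higher in Krt6a-high than in wing cells, ran 243, 221 and 218 CPM in 6-month WT, Muc4 ran 4.02, 13.2 and 10.4 CPM there, and Itgb4 ran 96.2, 43.2 and 56.3 CPM in CRIC KO.

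**Figure D2:**
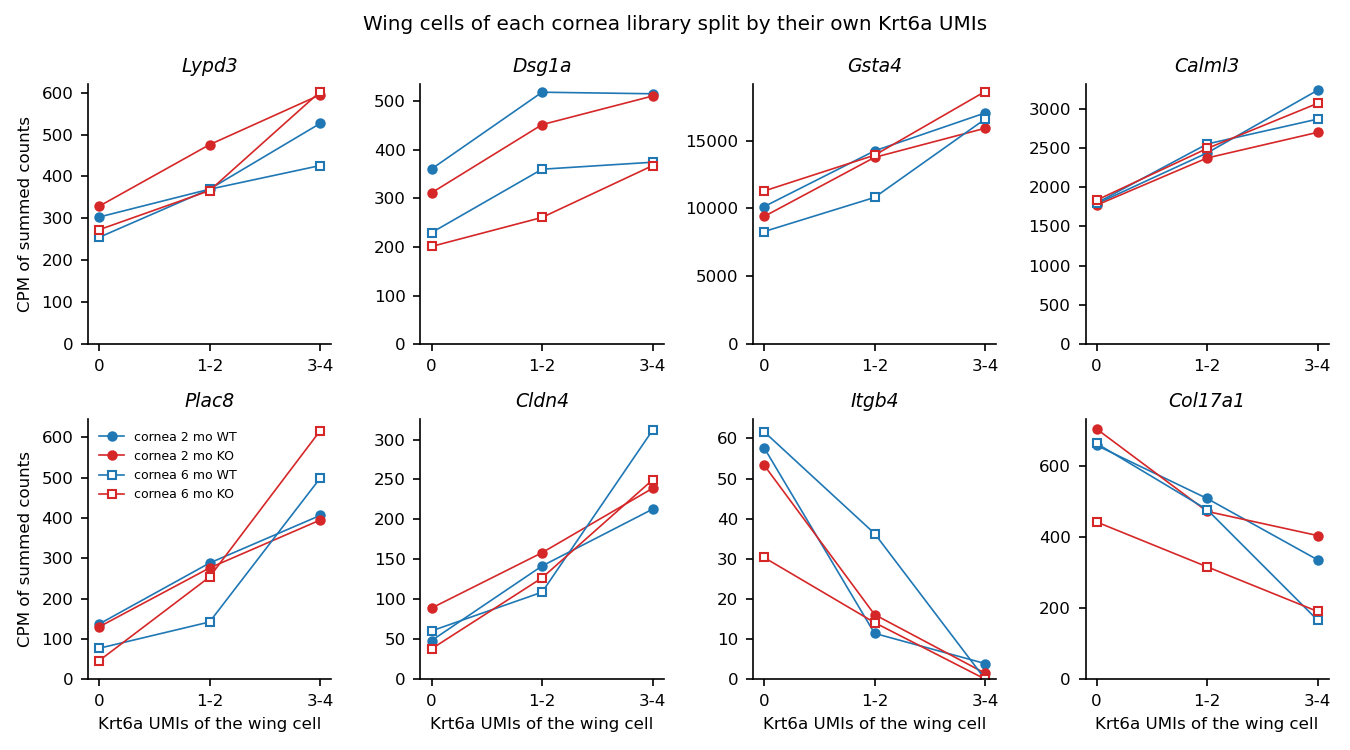
Wing cells of each cornea library split by their own Krt6a UMIs (0, 1 or 2, and 3 or 4), with the CPM of the summed counts of each group on the y axis (blue WT, red KO, filled 2 months, open 6 months). Lypd3, Gsta4, Calml3, Plac8 and Cldn4 step up and Itgb4 and Col17a1 step down in all 4 libraries.

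Ranked by variance over mean after thinning to 1500 UMIs, the genes that varied most from wing cell to wing cell included Gsta4, Slurp1, Lypd2, Tmsb4x, Krt12 and S100a6. The list was led by Gm42418, a model that collects ribosomal RNA reads, and by Malat1, and it also held mt-Atp6, mt-Co2, mt-Co1 and Lars2. Gsta4 had a variance 3.99, 4.79, 4.12 and 3.95 times its mean, and was detected in 99.6% to 100% of the thinned cells. Slurp1, a secreted Ly6-family protein of the corneal surface, had ratios of 3.66, 3.54, 3.36 and 3.72 and was detected in 84.1% to 94.7%. A variance equal to the mean is what counting alone gives.

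The share of epithelial barcodes that were wing cells was higher at 2 months than at 6 months in both genotypes. It was 13.3% (95% exact binomial interval 12.2% to 14.4%) in 2-month WT, 18.1% (17.1% to 19.3%) in 2-month KO, 5.35% (4.61% to 6.18%) in 6-month WT and 6.68% (5.65% to 7.84%) in 6-month KO. The CRIC libraries gave 11.5% (9.07% to 14.4%) in WT and 7.08% (5.53% to 8.91%) in KO. The cornea share was higher in the KO library at both ages, and the CRIC share was higher in the WT library. With 1 library per group there is no test, and the intervals cover counting error only.

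Because the gate counts UMIs, a deeper barcode passes Gsta2 and Muc15 more easily and fails the upper limits more easily. Gated after thinning to 1500 UMIs, which left out shallower barcodes, the shares were 10.8%, 13.99%, 3.61% and 5.20% in the cornea libraries and 12.6% and 10.3% in the CRIC libraries, in the same order of groups within cornea. The other states differed between ages too, with basal cells numbering 66 and 137 at 2 months and 209 and 92 at 6 months. A share of barcodes also depends on how layers were released in dissociation, so fewer wing cells in the tissue and fewer recovered cannot be told apart.

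**Figure D3:**
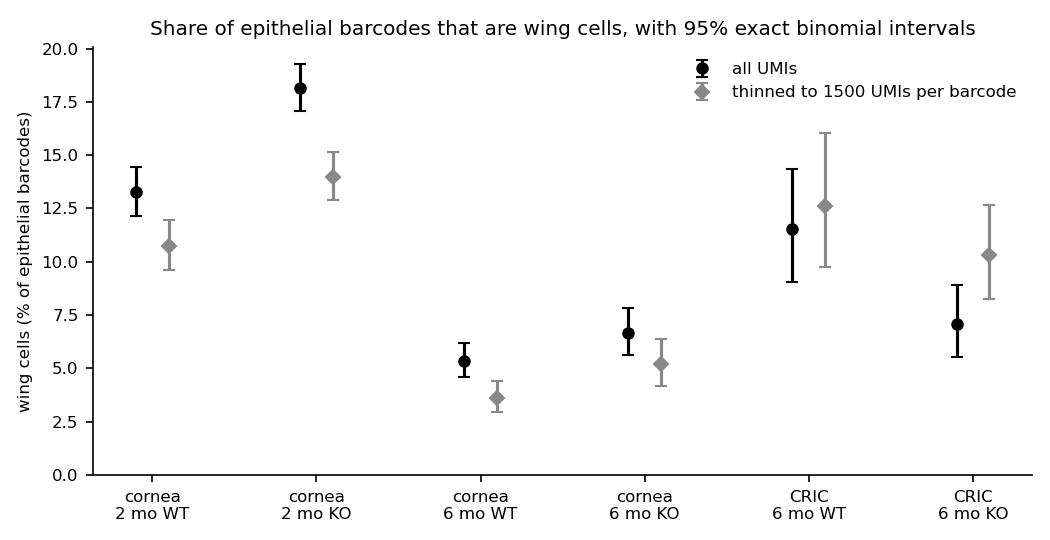
Wing cells as a percentage of epithelial barcodes in each of the 6 libraries (points) with 95% exact binomial intervals (bars), from all UMIs (black) and after thinning each barcode to 1500 UMIs (grey). Both 2-month cornea libraries lie above both 6-month cornea libraries, and the CRIC libraries lie between 7.08% and 12.6%.

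The genotype comparison concerns loss of 3 microRNAs, whose mature sequences from RefSeq (GRCm38.p6, minus strand of chromosome 6) are shown because their seeds define which transcripts they can pair with; capitals mark the seed, bases 2 to 8. The sequence of miR-183-5p lies at chr6:30169711-30169732, that of miR-96-5p at chr6:30169506-30169528 and that of miR-182-5p at chr6:30165962-30165986.
mmu-miR-183-5p: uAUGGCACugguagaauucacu
mmu-miR-96-5p: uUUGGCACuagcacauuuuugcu
mmu-miR-182-5p: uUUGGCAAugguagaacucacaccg
The 3 seeds differ from each other, and those of miR-96-5p and miR-182-5p share all but the last base.

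No transcript with a seed match was called by genotype in wing cells. Of 8322 tested genes with an annotated 3' UTR, 818 held an exact 8-base match (the complement of the seed followed by A) to at least 1 of the 3 microRNAs in their longest UTR. Of these, 0 passed the genotype test by edgeR's quasi-likelihood test with Benjamini-Hochberg adjustment, 0 by DESeq2, and 22 had an unadjusted edgeR p under 0.05. Over all 8322 genes with a UTR, 9 were called and 283 had an unadjusted p under 0.05, so that a count of 0 among 818 is near the share of all genes. Their median KO minus WT difference was -0.05 on the log2 scale, against 0.00 for the 7504 genes with no match. The median was -0.04 for 177 genes with GTGCCATA (miR-183-5p), -0.05 for 260 with GTGCCAAA (miR-96-5p) and -0.06 for 446 with TTGCCAAA (miR-182-5p). Of 15 targets reported for the cluster in other tissues, 11 were tested, and 0 were called by edgeR's quasi-likelihood test or DESeq2, 0 had an unadjusted p under 0.05, and the median was -0.18. Ezr, which links membrane to actin, read 287 and 317 CPM at 2 months and 249 and 262 CPM at 6 months (WT, then KO), and Clock read 165, 139, 154 and 124 CPM over the 4 cornea libraries.

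Few genes differed between KO and WT wing cells. The 4 cornea libraries were fitted with genotype and age together, which leaves 1 residual degree of freedom. Of 8486 genes tested by edgeR's quasi-likelihood test with Benjamini-Hochberg adjustment, 2 were called higher in KO (0.0236%) and 7 lower (0.0825%), and 292 had an unadjusted p under 0.05. The count of 9 called genes moved to 55 without the 2-month KO library, to 18 without the 6-month KO library and to 4 with DESeq2. With the 2-month KO library limited to its wing cells with Xist and no Y-linked UMI, an alternative chosen after the data were seen, it was 9. With the CRIC pair added and each WT and KO pair of 1 age and preparation as a block, 0 genes were called and 178 had an unadjusted edgeR p under 0.05. Of the 9, 6 had the same sign at both ages, and of these Cd74, H2-Ab1, H2-Eb1, H2-Aa and Spink7 were lower in KO.

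The strongest calls were class II antigen presentation genes of immune cells. Cd74, the class II invariant chain, read 73.6 CPM in 2-month WT, 5.19 in 2-month KO, 140 in 6-month WT and 4.22 CPM in 6-month KO, a difference of -3.997 ± 0.31 (log2, SE; edgeR quasi-likelihood adjusted p = 8.59e-34, and 1.38e-09 without the 2-month KO library). In the CRIC wing cells the direction was the opposite, 0 in WT and 116 CPM in KO. These counts sat in few barcodes. The 165 Cd74 UMIs of 2-month WT were in 8 cells and the 160 of 6-month WT in 3, whereas the 24 of 2-month KO were spread over 15 cells.

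Only 10, 18, 3 and 4 of the cornea wing cells held any UMI of 8 immune markers (Ptprc, Tyrobp, Fcer1g, C1qa, C1qb, Csf1r, Lyz2 and Cd74). In each library 2 of these cells held 5 or more. Those 2 cells carried 366 of 374 immune marker UMIs in 2-month WT, 12 of 31 in 2-month KO, 377 of 381 in 6-month WT and 165 of 167 in 6-month KO. When all wing cells with an immune marker UMI were left out, an alternative chosen after the data were seen, 3 of 8417 genes were called. They included Spink7 and Fn1. Fn1, which encodes fibronectin, then read 149, 63.9, 55.4 and 35.1 CPM and was lower in KO by a log2 difference of -1.07 ± 0.22 (SE, edgeR quasi-likelihood adjusted p = 0.00384), whereas with all members it read 152, 63.4, 55.0 and 54.9 CPM and was not called. Cd74 and Lyz2 are among the 8 markers, so leaving out these cells set both to 0 by construction. The 3 H2 genes are not markers and also fell under the filter on low counts. Lyz2, a lysozyme of macrophages, and Apoe were called lower in KO with opposite signs at the 2 ages. Without the 2-month KO library Apoe was no longer called (adjusted p = 0.921, edgeR's quasi-likelihood test) and the difference of Lyz2 turned to 1.45. They shared this dependence on a few cells in part: Lyz2 had 98, 2, 124 and 86 UMIs in 3, 2, 2 and 3 cells.

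**Figure D4:**
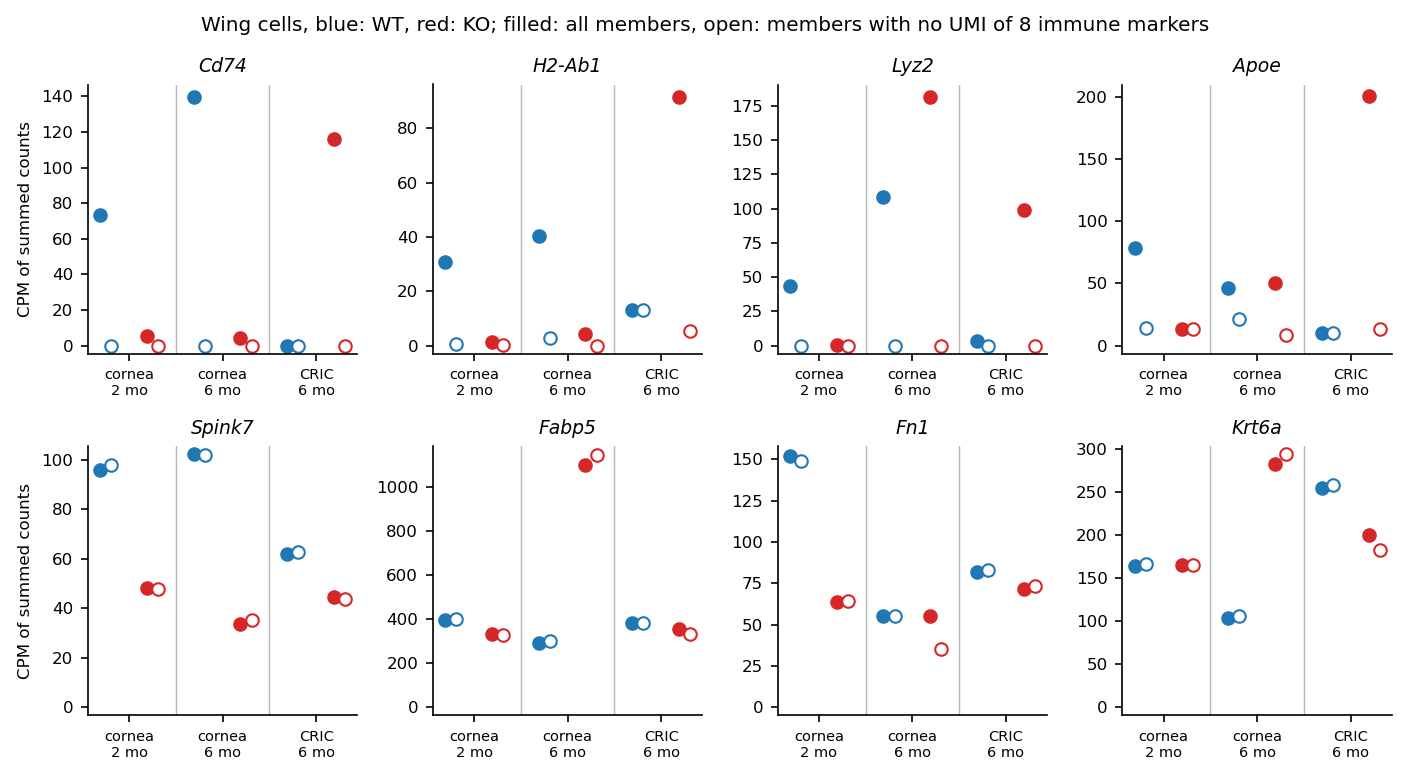
CPM of summed wing cells per library (blue WT, red KO) for 6 genes that passed the genotype test, for Fn1 and for Krt6a, with all members (filled) and without members holding an immune marker UMI (open). In the cornea libraries H2-Ab1 drops to near 0 without those members, while Spink7 and Fabp5 stay close to their values. Cd74 and Lyz2 are themselves immune markers, so their open points are 0 by construction.

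Spink7 did not depend on those cells. Spink7, a serine protease inhibitor of stratified epithelia, read 95.9 and 48.2 CPM at 2 months and 102 and 33.8 CPM at 6 months (WT, then KO), a difference of -1.13 ± 0.22 (log2, SE; edgeR quasi-likelihood adjusted p = 0.00061). The CRIC wing cells read 62.1 in WT and 44.5 CPM in KO, so that KO was lower in all 3 pairs. Its 215, 223, 117 and 16 UMIs were spread over 130, 168, 59 and 14 wing cells, and it was low in free RNA (1.36 to 4.59 CPM). Basal cells read 19.2, 13.7, 21.2 and 3.29 CPM, and the difference between the genotype effects in wing and basal cells was -0.06 ± 0.74. Spink7 overlaps Spink10 in the annotation. By edgeR's quasi-likelihood test the adjusted p was 0.0443 without the 2-month KO library and 0.171, 0.187 and 1.0 without the 2-month WT, the 6-month KO and the 6-month WT library, so that the call was kept only in the first of these. With all 6 libraries and the pairs as blocks it was 0.996, and with genotype alone in the fit 0.273 (edgeR's quasi-likelihood test). DESeq2 did not call Spink7.

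Fabp5, a fatty acid carrier, was called higher in KO but rested on 1 library, at 395, 331, 293 and 1099 CPM, and CRIC wing cells read 382 in WT and 354 CPM in KO. Without the 6-month KO library its difference was -0.09 on the log2 scale. The basal cells of the same 6-month KO library also read high, at 793 CPM against 168 to 262 CPM in the other 3.

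In the keratin (9 tested), hemidesmosome (13), desmosome (11), junction (19), cornified envelope (11), surface mucin (7), glutathione (28), epithelial transcription factor (22), Notch (12), growth factor (12), immediate early (14), heat shock (12) and circadian clock (14) lists, 0 genes were called by genotype with edgeR's quasi-likelihood test or with DESeq2. Since 9 of all 8486 genes were called, a count of 0 in lists of this size is near the share of all genes. An unadjusted edgeR p under 0.05 was reached by 3 keratin, 1 hemidesmosome, 2 junction, 2 transcription factor, 1 growth factor and 2 immediate early genes and by 0 in the others of these lists. The medians of these lists lay between -0.20 (hemidesmosome) and 0.27 (mucin), against -0.01 over all genes tested. Krt12 and Dsp, whose values stand above, differed between genotypes in opposite directions at the 2 ages. Of 7 tested immune genes 2 were called lower (Cd74 and Lyz2), and of 17 cholesterol and lipid genes Fabp5 was called higher. In the difference between the genotype effects in wing and basal cells, 1 of 7848 genes was called, lower (0.0127%), and 267 had an unadjusted p under 0.05. It was BC100530, a stefin-like protease inhibitor, at 157, 116, 196 and 160 CPM in wing cells and 60.7, 41.0, 76.4 and 339 CPM in basal cells, where the 6-month KO library alone was high. Without that library the difference was 0.10 on the log2 scale, and by DESeq2 0 genes were called.

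With edgeR on the 4 cornea libraries, more genes were called by age than by genotype. DESeq2 called 2 by age and 4 by genotype, and with edgeR the order was also reversed when the 2-month KO library was left out. In the edgeR fit of the 4 cornea libraries, 34 of 8486 genes were called higher at 6 months (0.401%) and 45 lower (0.530%), and 783 had an unadjusted p under 0.05. The count of 79 moved to 20 and 34 when the KO or the WT library of 2 months was left out, to 257 when that of 6-month WT was, and to 2 with DESeq2, and Taf10 was called under every alternative run for it. Age is here 2 libraries against 2, and a difference of preparation between the ages cannot be told apart from age. The CRIC wing cells, also from 6 months, were not used in the test and are given beside it. They differ in enrichment and handling, so they cannot tell age from preparation either.

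Several immediate early genes, which are transcribed within minutes of a stimulus and also of tissue dissociation, were higher at 6 months. Of 14 tested members, edgeR called 6 higher and 1 lower, where 0.401% of all tested genes were called higher and 0.530% lower. DESeq2 called 0 of the 14. In both genotypes 5 members were higher and 2 lower, as were 1692 and 3099 of all 8486 genes. The median log2 difference was 0.72 against 0.00 over all genes. Atf3, a stress-induced transcription factor, read 33.0 and 53.2 CPM at 2 months and 172 and 67.5 CPM at 6 months (WT, then KO), higher by 1.61 ± 0.22 (log2, SE; edgeR quasi-likelihood adjusted p = 1.46e-09). CRIC wing cells read 101 and 163 CPM, on the 6-month side. Ier3, a stress-induced survival gene, read 84.3, 118, 203 and 152 CPM over the 4 cornea libraries and was higher by 0.97. Fosb, at 12.9, 27.0, 60.3 and 33.8 CPM, was higher by 1.46. In all 3 genes both 6-month libraries lay above both 2-month libraries, with 6-month WT highest. Their calls were lost without the 6-month WT library (adjusted p = 0.238, 0.0903 and 0.389 for Atf3, Ier3 and Fosb, edgeR's quasi-likelihood test), those of Ier3 and Fosb also without the 2-month WT library (1.0 and 0.611), and that of Ier3 also without the 2-month KO library (0.0784).

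Fos, a subunit of the AP-1 factor, was called higher by 0.88 at 6 months but split by genotype, at 386 and 772 CPM at 2 months and 1116 and 739 CPM at 6 months. Jun (303, 454, 800 and 447 CPM) and Zfp36 (86.6, 131, 204 and 125 CPM) had the same pattern, with 2-month KO slightly above 6-month KO. The calls of Fos, Jun and Zfp36 were lost when the WT library of 2 months (adjusted p = 1.0 for each) or that of 6 months (0.237, 0.268 and 0.559, edgeR's quasi-likelihood test) was left out. Without the 2-month KO library Fos kept its call (0.0369) and Jun and Zfp36 did not (0.17 and 0.217). Jund, another Jun-family member, was called lower at 150, 234, 96.9 and 99.2 CPM, which fell by 0.78, and CRIC wing cells read 353 and 361 CPM. Its call was lost without the 2-month KO (1.0) and the 6-month WT library (0.12). The immediate early genes were also lower in wing than in basal cells, in 10 of 14 members in all 4 libraries (median log2 ratio -0.76), as were 13.7% of all measured genes. Free RNA held 338 to 669 CPM of Fos.

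Fos and Junb were called in the test of the difference in age effect between layers, and these calls depended on the settings. In the test of the age effect in wing minus that in basal cells, 2 of 7848 genes were called higher (0.0255%) and 1 lower (0.0127%), and 409 had an unadjusted p under 0.05. Fos (0.74 ± 0.16, edgeR quasi-likelihood adjusted p = 0.0197) and Junb (0.71 ± 0.16, adjusted p = 0.0207) were the higher genes, each at an adjusted p of 0.0452 without the 2-month KO library. Fos read 1048, 1534, 1817 and 994 CPM in basal cells. Junb read 568, 869, 1153 and 665 CPM in wing cells and 1300, 1417, 1333 and 938 CPM in basal cells. In both genes the 6-month value was above the 2-month value in WT wing cells and below it in KO wing cells and KO basal cells. Both calls were lost without a filter on low counts (adjusted p = 0.139 for Fos and 0.185 for Junb, edgeR's quasi-likelihood test), when 2-month KO was limited to cells with Xist and no Y-linked UMI (0.336 each), and when 2-month WT was left out (1.0 each). That of Fos was also lost when 6-month KO was left out (0.109) and that of Junb when 6-month WT was (0.344). The 3 calls became 1 when 2-month WT was left out, 7 when 6-month WT was left out and 0 with DESeq2. BC100530 was the lower gene, by -1.42 ± 0.32, through the basal cells of 6-month KO.

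Nfkbiz and Nfkbia, of the IkB family that binds and restrains or redirects the inflammatory factor NF-kB, were among the genes called higher at 6 months. Nfkbiz, a nuclear IkB protein, read 31.2 and 27.0 CPM at 2 months and 76.0 and 65.4 CPM at 6 months, higher by 1.40 ± 0.27 (log2, SE; edgeR quasi-likelihood adjusted p = 9.24e-05), with 91.5 and 71.7 CPM in CRIC wing cells. Nfkbia, the cytoplasmic inhibitor IkB-alpha, read 155, 139, 224 and 268 CPM and was higher by 0.86. Hbegf, an EGF-receptor ligand released on corneal wounding, read 33.0, 66.0, 87.3 and 103 CPM and was higher by 1.15, with 131 and 94.0 CPM in CRIC. Leaving out the 2-month KO library ended the calls of Nfkbiz (0.0949) and Nfkbia (0.828), and leaving out the 2-month WT library those of Nfkbia (0.418) and Hbegf (1.0). The call of Hbegf was also lost without the 6-month KO library (0.17). Free RNA moved in the same direction for these genes, from 70.7 and 84.1 to 136 and 162 CPM for Nfkbiz and from 246 and 256 to 422 and 379 CPM for Hbegf. Its part in the result was not tested.

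The promoters of 3 of these genes are shown because they hold a match to a motif of a factor named above. Each run is the 250 bases before the annotated start (RefSeq, GRCm38.p6), read on the gene's strand, with the match in capitals. TGACGT, the core of the cAMP response element that ATF and CREB proteins bind, was searched on both strands and is marked in Fos (chr12:85473640-85473889, plus strand) and Atf3 (chr1:191183334-191183583, minus strand). GGANTTTCC, a form of the NF-kB motif, was searched on both strands and is marked in Nfkbia (chr12:55492648-55492897, minus strand). The motifs do not overlap each other in these windows.
Fos promoter: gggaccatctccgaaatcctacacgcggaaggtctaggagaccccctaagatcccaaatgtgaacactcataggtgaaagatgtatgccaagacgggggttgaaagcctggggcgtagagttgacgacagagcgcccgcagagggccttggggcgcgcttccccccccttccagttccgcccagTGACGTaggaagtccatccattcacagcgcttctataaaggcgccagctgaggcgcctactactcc
Atf3 promoter: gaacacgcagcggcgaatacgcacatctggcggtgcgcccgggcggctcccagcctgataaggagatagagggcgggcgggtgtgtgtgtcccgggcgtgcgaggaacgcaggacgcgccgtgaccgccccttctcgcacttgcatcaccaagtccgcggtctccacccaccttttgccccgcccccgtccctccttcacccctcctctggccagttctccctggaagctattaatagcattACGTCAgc
Nfkbia promoter: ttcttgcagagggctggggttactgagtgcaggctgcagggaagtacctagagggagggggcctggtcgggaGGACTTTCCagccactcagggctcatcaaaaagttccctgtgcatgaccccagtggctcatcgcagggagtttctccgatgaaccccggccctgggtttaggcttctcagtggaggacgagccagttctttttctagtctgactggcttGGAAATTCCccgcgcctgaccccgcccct
The matches lie 66 to 61 bases before the start in Fos, 8 to 3 in Atf3, and 178 to 170 and 29 to 21 in Nfkbia. Over 32851 promoters of this length, 6.47% held TGACGT and 1.07% GGANTTTCC on either strand. Of 25 genes called higher at 6 months with a promoter in the table, 4 held TGACGT (Atf3, Fos, Hk2 and Ppp1r15a) and 3 GGANTTTCC (Ier3, Nfkbia and Pglyrp1). Of 35 called lower, 6 held TGACGT and 1 GGANTTTCC.

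Other genes were higher at 6 months for the members of a single library or a few cells. Krt13, a keratin of conjunctival and superficial cells, was called from 6-month KO alone (12.9, 14.3, 13.1 and 76.0 CPM), and its call was lost without that library (adjusted p = 0.997), 2-month KO (0.0995) or 2-month WT (0.0702, edgeR's quasi-likelihood test). Fabp5 was too, its call was lost without 2-month KO (0.57) or 2-month WT (0.103), and without the 6-month KO library its age difference was -0.22. Gstp1 was called from 6-month WT alone (12.05, 16.9, 68.1 and 12.7 CPM; -0.06 on the log2 scale without it), and the basal cells of that library were high too, at 49.1 CPM. The macrophage genes Lyz2, C1qa, C1qb, Fcer1g and Tyrobp made 5 of 7 tested immune genes called higher, with log2 differences from 2.28 to 3.33. Without the 2-month KO library C1qa, C1qb, Fcer1g and Tyrobp were no longer called (adjusted p = 0.169, 0.441, 0.81 and 1.0, edgeR's quasi-likelihood test), and without 6-month KO none of the 5 was (0.0603 for Lyz2 and 0.175 to 0.396 for the others). Their UMIs sat in few wing cells, and the 34, 2, 27 and 31 UMIs of C1qa were in 2 cells of each library. Without all members that held an immune marker UMI 62 genes were called by age (24 higher, 38 lower), of which 60 were among the 79. Lyz2, C1qa, C1qb, Fcer1g and Tyrobp are among those markers, so by construction no counts of them were left to test.

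Among the genes called lower at 6 months, Taf10, Hras and Tmem238 kept the call without each 1 of the 4 libraries. Taf10 (GRCm38 chromosome 7, 105739393 to 105744361, minus strand), a subunit of the TFIID initiation complex, read 173 and 187 CPM at 2 months and 44.5 and 48.5 CPM at 6 months, a fall by 1.83 ± 0.23 (log2, SE; edgeR quasi-likelihood adjusted p = 3.21e-12). Hras, a small GTPase downstream of growth factor receptors, read 133, 164, 41.0 and 54.9 CPM and fell by 1.52. The DESeq2 Wald test called Taf10 (adjusted p = 0.004) but not Hras (0.157) or Tmem238 (0.83). Basal cells read 153, 149, 40.5 and 85.5 CPM of Taf10 and 102, 117, 65.7 and 69.1 CPM of Hras. Free RNA held 89.1, 122, 38.9 and 50.5 CPM of Taf10 and 53.6, 81.2, 31.4 and 25.6 CPM of Hras, and its part was not tested. Neither gene was called in the wing minus basal test of age (adjusted p = 0.978 and 0.925, edgeR's quasi-likelihood test). Ybx1, a cold shock domain protein that binds mRNA, read 530, 601, 273 and 274 CPM and fell by 0.91. Mycbp2, a large ubiquitin ligase, read 286, 276, 131 and 112 CPM, and Lrig1, a brake on EGF receptors in epithelial stem cells, read 58.0, 52.6, 22.7 and 12.7 CPM. In each of these genes both 6-month values lay below both 2-month values, by more than the spread between the genotypes. Tmem238, Asap2, Dhx36, Mtch1, Hdgfl3 and Cdv3 followed the same pattern and fell by 1.72, 1.74, 1.61, 1.19, 1.16 and 1.10. Asap2 overlaps Itgb1bp1 and Hdgfl3 overlaps Tm6sf1. The calls of Ybx1, Mycbp2 and Lrig1 were lost without the 2-month KO library (adjusted p = 0.641, 0.0949 and 0.0756, edgeR's quasi-likelihood test) and also without the 2-month WT library (0.211, 0.103 and 0.103). Those of Asap2, Dhx36, Mtch1, Hdgfl3 and Cdv3 were lost when 2-month KO was left out (0.0606, 0.172, 0.144, 0.173 and 0.406), and that of Hdgfl3 also when either WT library was (0.103 without 2 months, 0.0729 without 6 months).

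The CRIC wing cells, of 6-month mice, mostly did not share these low values. They read 150 (WT) and 188 CPM (KO) for Taf10, 180 and 230 CPM for Hras, 712 and 668 CPM for Ybx1 and 294 and 262 CPM for Mycbp2, all on the side of the 2-month corneas, that is, beyond the middle between the mean log2 CPM of the 2-month and of the 6-month corneas. Of the 45 genes called lower, 36 had both CRIC values on the 2-month side, 3 had both on the 6-month side and 6 were split. Ttc36 was 1 of the 3, at 51.8, 85.7, 25.3 and 14.8 CPM in cornea and 29.4 and 27.2 CPM in CRIC wing cells, with its call lost without 2-month KO (adjusted p = 0.485, edgeR's quasi-likelihood test). Of the 34 genes called higher, 15 had both CRIC values on the 6-month side, 4 on the 2-month side and 15 were split. For the side of a gene a count of 0 was taken as 3 UMIs. The 15 thus include C1qb, which had 0 UMIs in CRIC WT. The called genes were picked on their cornea values, and the same shares over all tested genes were not measured. The counts in both directions are thus a description of the called genes only. Erh, a small nuclear protein that overlaps Slc39a9, was higher by 1.19 (41.0, 63.0, 129 and 80.2 CPM) and split in CRIC, at 52.3 and 84.1 CPM, with its call lost when a WT library was left out (adjusted p = 0.495 for 2 months, 0.206 for 6 months, edgeR's quasi-likelihood test). Ifitm3, an interferon-induced membrane protein, was higher by 1.25 (32.6, 19.5, 49.8 and 65.4 CPM) and read 6.54 and 47.0 CPM in CRIC. Its call was lost without 2-month KO (0.828), without 6-month KO (0.0828), with age alone in the fit (0.0896) and without members holding an immune marker UMI (0.0591, edgeR's quasi-likelihood test). CRIC libraries differ from the corneas in enrichment and handling as well as in age. Taf10 overlaps Ilk.

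**Figure D5:**
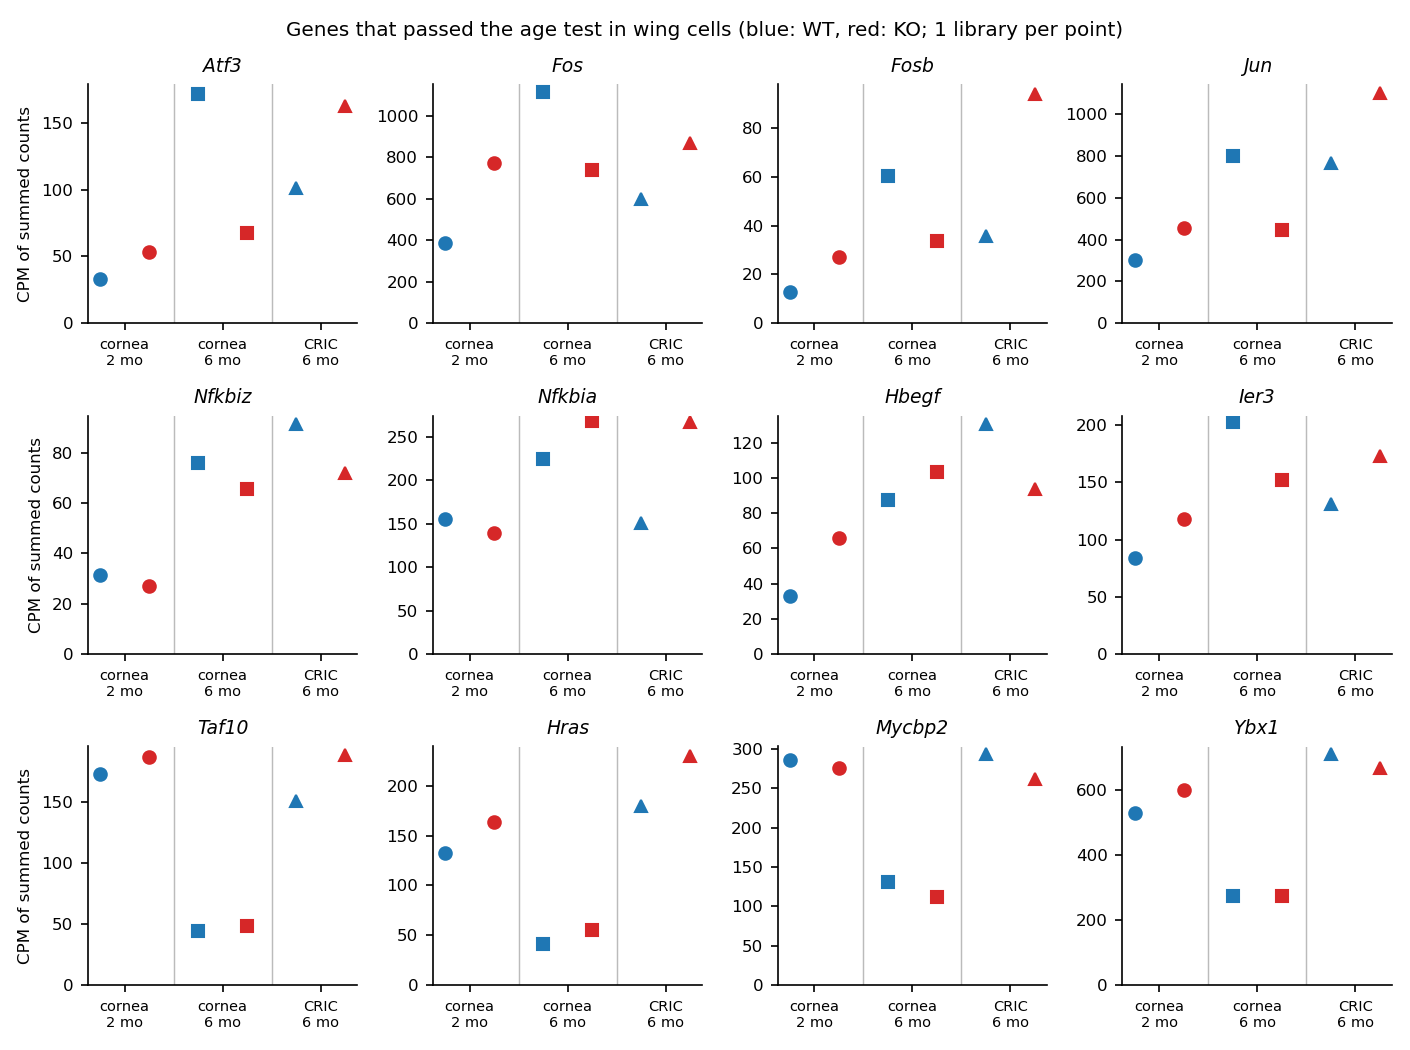
CPM of summed wing cells per library (blue WT, red KO) for 12 genes that passed the age test, with 2-month cornea (circles), 6-month cornea (squares) and 6-month CRIC (triangles). The CRIC values of Atf3, Nfkbiz and Hbegf lie above both 2-month corneas, and those of Taf10, Hras and Ybx1 lie near or above the 2-month corneas.

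Of 11 desmosome, 19 junction and 13 hemidesmosome genes tested, 0 were called by age with edgeR's quasi-likelihood test or DESeq2, and 5, 5 and 1 had an unadjusted edgeR p under 0.05. At 6 months 7 of 11 desmosome, 13 of 19 junction and 6 of 13 hemidesmosome genes were lower in both genotypes, as were 3099 of all 8486 genes (36.5%), and the medians of the 3 lists were -0.29, -0.29 and -0.00. Dsg1a read 421 and 376 CPM at 2 months and 276 and 243 CPM at 6 months, and Dsc2 read 366, 349, 238 and 236 CPM. Of 22 epithelial transcription factors, Klf6 was called higher (82.5, 90.9, 116 and 154 CPM, by 0.75), a call lost without the 2-month KO (0.819), 2-month WT (1.0) or 6-month KO library (0.204), and 15 were lower in both genotypes without a call. In the cholesterol and lipid list of 17 tested genes Fabp5 was called higher and Scd2, a fatty acid desaturase, lower, at 629, 528, 329 and 340 CPM, a call lost without either 2-month library (0.81 without KO, 1.0 without WT). The heat shock (12 tested) and circadian clock (14 tested) lists had 0 calls by edgeR's quasi-likelihood test and by DESeq2, with 0 and 1 genes at an unadjusted p under 0.05.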

How the data were processed

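Single-cell RNA-seq of 4 cornea and 2 CRIC libraries was deposited as raw 10x matrices of UMI counts per gene and barcode. Per the submitters' processing notes the authors used Cell Ranger 2.1.1 and mm10; normalization of the deposited counts: none. All members and gene lists were chosen with earlier results of these data known.

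Barcodes were gated as described above with Python 3.11.15, numpy 2.4.6, pandas 2.3.3 and scipy 1.17.1, and raw counts were summed per library and state. Barcodes with at most 100 UMIs stood for free RNA and held 7.58% to 16.2% of the UMIs. No doublet caller was run. Thinned cells were drawn once to 1500 UMIs with a fixed seed. The sums of the 4 cornea libraries were tested with edgeR 4.0.16 in R 4.3.3 (limma 3.58.1; filterByExpr, TMM, quasi-likelihood F test, genotype and age together, Benjamini-Hochberg adjusted p under 0.05), and with DESeq2 1.42.0 as an alternative. The scripts were tested on simulated data. Each SE is the log2 difference divided by the square root of the F statistic, so it rests on the same spread pooled largely over genes. Differences between layers came from 1 fit of wing and basal sums with an interaction term. Where 1 library was left out, the other 3 were fitted with the tested factor alone, which leaves 1 residual degree of freedom and mixes genotype with age in part, and the lone library of an arm was assumed to vary like the others.

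Named genes are, for each edgeR test, the 12 per direction with the lowest adjusted p among called genes of the same sign in both pairs, leaving out genes of the gate, mitochondrial and ribosomal protein genes and gene models, plus called list members and a few list members not called. For states they are the 12 per direction with the largest median ratio among genes past 2-fold in all 4 libraries and at 100 CPM in the higher state. Fn1 and Kit were named after their values were seen. Seed matches used the longest 3' UTR of each gene in GENCODE vM21. A few results are not reported here. Figures were drawn with matplotlib 3.10.9.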

Additional observations from a re-analysis of the deposited data

Results flagged for a closer look

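The age effect differed between wing and basal cells of the cornea for Fos (0.74 on the log2 scale, edgeR quasi-likelihood adjusted p = 0.0197) and Junb (0.71, adjusted p = 0.0207) in a test of the difference itself. Both calls were lost without a filter on low counts (adjusted p = 0.139 and 0.185, edgeR's quasi-likelihood test) and with the 2-month KO cells limited to those with Xist and no Y-linked UMI (0.336 each). The same test picked BC100530 for age (-1.42) and for genotype (-1.53), in each case through the basal cells of the 6-month KO library. In the wing cells of the 2-month KO library, which is labelled female, 302 UMIs of 4 Y-linked genes were counted, against 0 in the other 5 libraries. These genes enter none of the comparisons.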

How the results depend on the processing

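No paired analysis was possible because the labels give no replicate numbers that pair samples across groups. In another design all 6 libraries were fitted with each WT and KO pair of 1 age and preparation as a block, and 0 genes were called by genotype with edgeR (178 at an unadjusted p under 0.05). The 9 genotype calls became 16 without a filter on low counts, 4 with DESeq2, 3 without the members above the 95th percentile of UMIs, 5 with the gate on thinned counts, 3 without members holding an immune marker UMI, 4 with genotype alone, and 10 to 55 with 1 library left out. The 79 age calls became 2 with DESeq2, 23 with age alone and 20 to 257 with 1 library left out. The wing minus basal test by genotype, with 1 call, gave 0 with DESeq2, 2 with the 2-month KO members that held Xist and no Y-linked UMI, and 0 to 3 with 1 library left out. By age, with 3 calls, it gave 0 without a filter, 0 with DESeq2, 1 without members holding an immune marker UMI, 0 with those 2-month KO members, and 1 to 7 with 1 library left out. The immune and Xist alternatives were chosen after seeing the data. Shares of wing cells with at least 3 UMIs of Gsta2 and Muc15 were 9.50%, 14.1%, 3.58% and 4.39% in cornea and 7.85% and 5.29% in CRIC. After thinning they were 10.8%, 13.99%, 3.61% and 5.20% in cornea and 10.3% in CRIC KO, and with at least 1000 UMIs 19.9% in 2-month KO. Genes 2-fold higher in wing than in basal cells were 22 with basal cells of at least 10 Krt14 UMIs, 18 after thinning and 104 to 137 with 1 library left out, and genes 2-fold lower were 66 after thinning and 142 to 206. Directions reversed for Lyz2 by genotype (0.83 without members above the 95th percentile, and -7.30 to 1.45 with 1 library left out), Fabp5 by genotype (-0.088 to 1.82) and by age (-0.22 to 1.78), Krt13 by age (-0.093 with the gate on thinned counts), Gstp1 by age (-0.058 to 2.26) and BC100530 by genotype between layers (-2.43 to 0.10). Over the 46 genes tested by name and their 574 alternatives, 381 kept direction and call, 185 kept the direction and lost the call and 8 reversed. The cause was not tested, beyond the fewer libraries or cells of each setting. Depth limits sums over few cells, 175 and 140 wing cells in the 6-month corneas and 69 and 67 in CRIC.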

Other observations

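The heat shock, circadian clock and interferon lists gave little between groups of wing cells. By edgeR's quasi-likelihood test with Benjamini-Hochberg adjustment, 0 of 12 heat shock and 0 of 14 clock genes were called by genotype or by age, and DESeq2 called 0 as well. Of these, 0 heat shock genes had an unadjusted p under 0.05 in either comparison, and 1 clock gene had one by age. Of 12 interferon response genes, 0 were called by genotype by either tool (3 at an unadjusted p under 0.05) and Ifitm3 was called higher at 6 months.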
